A study of Mus musculus with 4 samples.

Results

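The genes of the adhesive and communicating junctions between cells were taken by symbol: cadherins and protocadherins, claudins, connexins, the alpha-, beta- and delta-catenins, the desmosomal cadherins with their plaque proteins, the zonula occludens proteins and occludin. A gene was included where a spot carried its symbol as the only one. The endothelial members Cdh5 and Cldn5 were left out. This gave 97 of the 14386 named genes, on 208 of 32064 spots: 27 protocadherins, 19 claudins, 18 cadherins, 13 connexins, 11 desmosomal genes, 6 catenins and 3 genes of the tight junction plaque and occludin. The rule used symbols only, but the members were chosen with earlier results of these data known.

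The RNA came from CGR8 mouse embryonic stem cells, a line that grows without feeder cells, at day 0 (undifferentiated) and as embryoid bodies at day 3 or day 10 in hanging drops. Embryoid bodies are cell aggregates in which several lineages form side by side. Each array had 2 channels and carried day 0 RNA in one of them, with day 3 RNA in the other on 2 arrays and day 10 RNA on 2 more. The second array of each day is labelled a technical replicate, so each day stands for 1 RNA pair, any SD covers technical steps only, and p-values would have no meaning. Which channel was divided by which is not stated in the labels. Values therefore keep the deposited sign, and positive or negative side does not say at which day a gene was higher. In RNA of whole aggregates, fewer cells of a type and less RNA per cell cannot be told apart.

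Cadherins bind their like on the neighbouring cell, and the catenins tie their cytoplasmic ends to actin. Desmosomes use the related desmogleins and desmocollins, which plakoglobin, plakophilins and desmoplakin link to keratin filaments. Claudins and occludin seal the space between epithelial cells at tight junctions, held in place by the zonula occludens proteins, while connexins form gap junction channels that pass small molecules from cell to cell. In the early mouse embryo, E-cadherin (Cdh1) holds the epiblast together, and its replacement by N-cadherin (Cdh2) accompanies the formation of mesoderm.

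The values here are log2 ratios, centred on the median of each array and averaged over the spots of a gene. A gene was called where both arrays of a day were at or beyond 2-fold on the same side, which is a log2 ratio of 1. In all, 6 members met this at day 3, at day 10 or between the days: Cdh15, Cdh22, Gja4, Pkp4, Pcdhga12 and Cldn11. The promoters of 4 of them are shown so that the called genes can be seen as sequence, from 250 bases before to 50 bases after the annotated start (RefSeq, GRCm38.p6). Those 4 have a single promoter in the table used. Capitals mark the GC box, GGGCGG or its reverse complement CCGCCC.
Cdh22 (chr2:165234688-165234987, minus strand): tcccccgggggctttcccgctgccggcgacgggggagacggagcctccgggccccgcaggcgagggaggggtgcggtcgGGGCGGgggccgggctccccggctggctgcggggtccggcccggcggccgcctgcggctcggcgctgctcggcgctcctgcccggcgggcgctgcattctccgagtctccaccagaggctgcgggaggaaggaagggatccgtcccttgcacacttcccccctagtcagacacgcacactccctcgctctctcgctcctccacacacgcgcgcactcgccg
Cdh15 (chr8:122848124-122848423, plus strand): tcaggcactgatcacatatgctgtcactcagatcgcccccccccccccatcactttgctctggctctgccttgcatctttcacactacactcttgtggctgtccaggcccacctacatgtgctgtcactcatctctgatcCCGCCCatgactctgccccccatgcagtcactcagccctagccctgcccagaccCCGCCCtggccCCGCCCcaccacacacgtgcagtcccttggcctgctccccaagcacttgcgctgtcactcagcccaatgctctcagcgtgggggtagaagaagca
Gja4 (chr4:127313990-127314289, minus strand): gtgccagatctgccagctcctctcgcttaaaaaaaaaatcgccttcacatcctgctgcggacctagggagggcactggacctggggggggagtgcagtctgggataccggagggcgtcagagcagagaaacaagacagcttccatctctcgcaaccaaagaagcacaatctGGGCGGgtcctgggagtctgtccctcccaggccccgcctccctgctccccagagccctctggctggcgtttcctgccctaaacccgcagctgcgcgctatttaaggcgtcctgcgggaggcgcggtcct
Cldn11 (chr3:31149670-31149969, plus strand): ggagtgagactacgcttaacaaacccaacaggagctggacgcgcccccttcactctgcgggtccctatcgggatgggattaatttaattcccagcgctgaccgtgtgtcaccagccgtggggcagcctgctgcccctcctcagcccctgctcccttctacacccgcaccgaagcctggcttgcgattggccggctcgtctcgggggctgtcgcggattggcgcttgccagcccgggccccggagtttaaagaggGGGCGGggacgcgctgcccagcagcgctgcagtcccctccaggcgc
The GC box was present in each of the 4, with 3 copies in Cdh15 and 1 in each of the others. It was found in 35.7% of the 32851 promoters in the table and in 37 of 73 member promoters searched (50.7%). Those 73 promoters belong to 53 of the 97 members, so shares and medians over them do not describe the whole set. The window of Cdh22 had 76.3% G and C with 38 CpG pairs, against medians of 52.7% and 7 over all promoters and 60% and 11 over the member promoters. The E-box CACCTG or CAGGTG, a motif bound by Snail and Zeb repressors of Cdh1, was in none of the 4, in 20.2% of all promoters and in 18 of 73 member promoters (24.7%). These are matches of letters and say nothing of binding.

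Few junction genes passed the limit. At day 3, 4 of 90 members with values on both arrays were called (4.44%), against 2.8% of 13707 genes. They were Cdh15 and Gja4 on the positive side, where 1.77% of all genes lay, and Cdh22 and Pkp4 on the negative side, where 1.03% lay. At day 10, 2 of 84 members were called (2.38%), Pcdhga12 on the positive and Cdh22 on the negative side, against 3.54% of 13199 genes (2.15% positive and 1.39% negative). With so few called, these shares do not set the members apart from the background. The median of the members was 0.049 at day 3 and 0.044 at day 10, against 0.0052 and -0.010 for all genes.

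Error was large for these genes. Another 2 members at day 3 (Cldn2 and Tjp1) and 2 at day 10 (Pcdhb21 and Pkp1) were beyond 2-fold on opposite sides on the technical arrays. These are 2.22% of the members at day 3 and 2.38% at day 10, beside 0.744% and 1.48% of all genes. Over the members the arrays correlated at r = 0.17 at day 3 (rho 0.30, 90 genes) and r = 0.02 at day 10 (rho 0.03, 84 genes), and 55 of 90 and 37 of 84 members had the same sign on both arrays. Over all genes r was 0.27 and 0.22. These correlations run across genes of the same pair of arrays and are descriptions. At day 10 a member's sign on one array thus told little of its sign on the other.

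**Figure D1:**
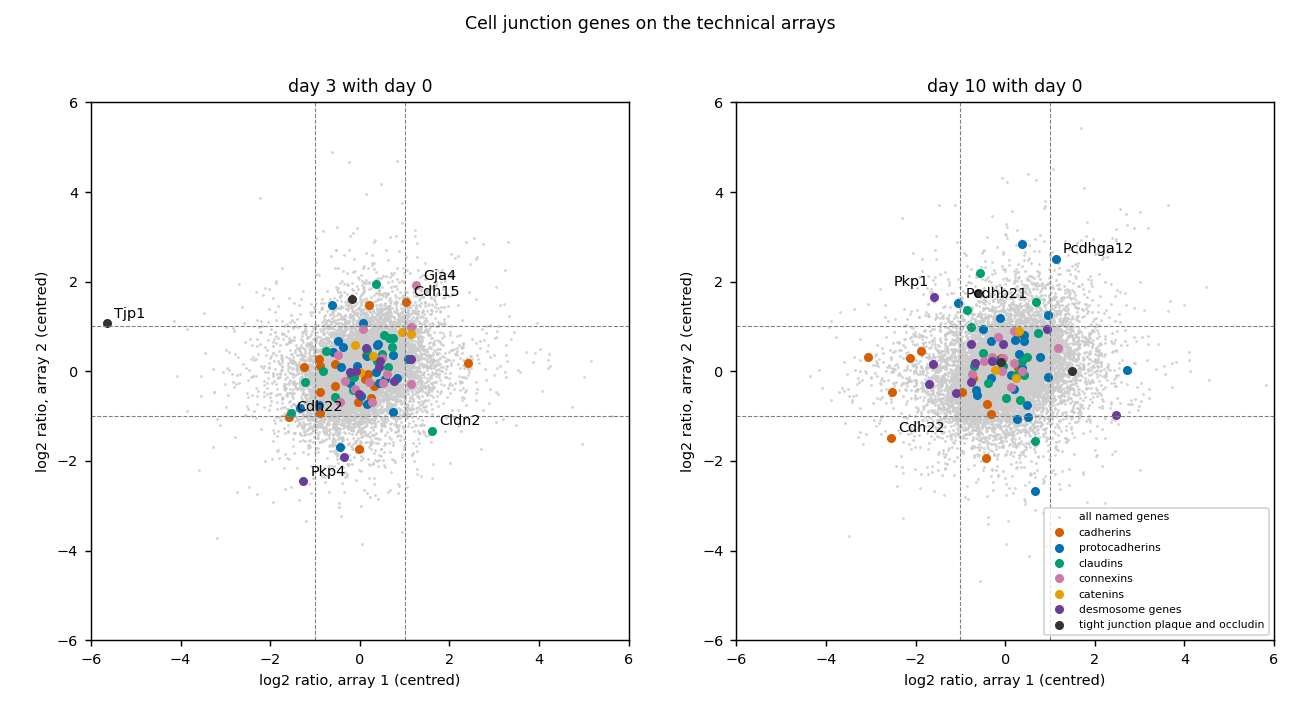
Centred log2 ratio of each gene on the first (horizontal) and second (vertical) technical array, for day 3 (left) and day 10 (right). Coloured points are members by family, grey points all named genes inside the axes, and dashed lines the 2-fold limits. Most members lie within the limits, Cdh22 lies beyond them on the negative side at each day, and Tjp1 lies far off the diagonal at day 3.

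The brightness of the spots went with this error. A deposited ratio can often be written as a ratio of whole numbers, and the smallest such numbers give a lower bound on how bright the channels were. Between 59.3% and 62.0% of the values per array gave whole numbers up to 10000. Larger numbers can also come from ratios that are not of whole numbers, so the order among the brightest genes is uncertain. By this measure the members were dim: their median percentile among all genes was 28.4, and 42 of 97 were in the dimmest 25% while 15 were in the brightest 25%. For the 33 members in the brighter 50% of genes with values on both day 3 arrays, r was 0.58, and for the 57 dimmer ones 0.05. At day 10 the values were 0.54 (31 genes) and -0.06 (53 genes), although rho among the brighter ones was 0.20 and 13 of 31 had the same sign. The SD of 1 array was 0.45 for brighter and 0.92 for dimmer members at day 3, and 0.39 and 1.14 at day 10.

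**Figure D2:**
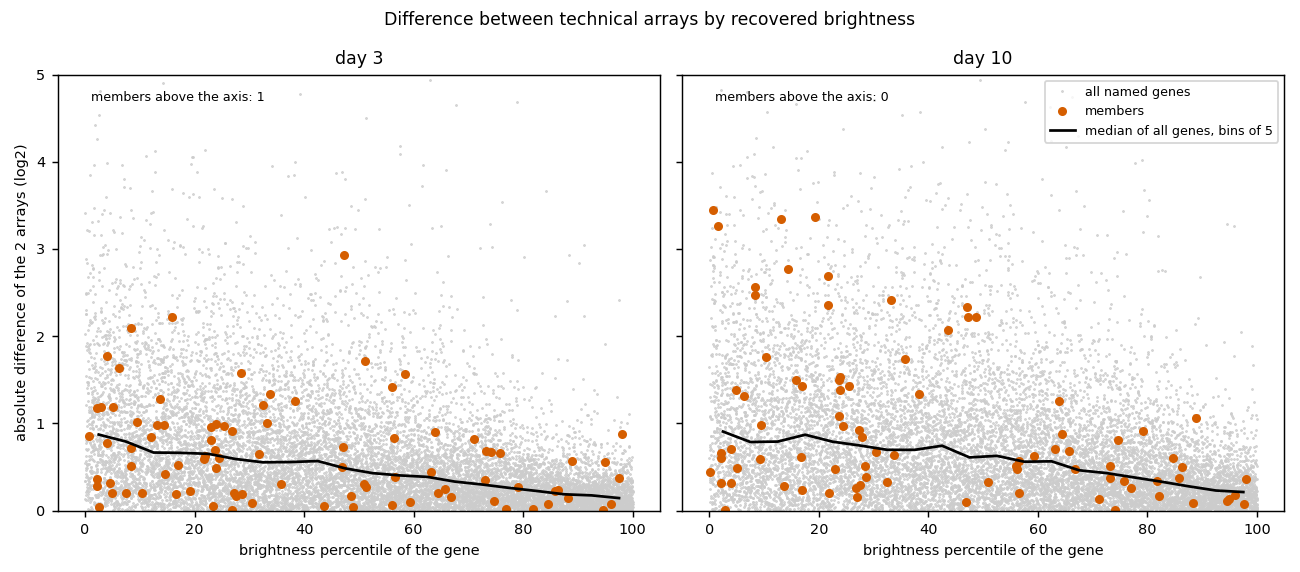
Absolute difference between the technical arrays (log2, vertical) against the brightness percentile of the gene (horizontal), for day 3 (left) and day 10 (right). Orange points are members, grey points all named genes, and the line is the median of all genes in bins of 5 percentiles. Members crowd on the left, where 42 of 97 are in the dimmest 25%, and their differences there reach beyond 2.

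Among the cadherins, Cdh22 was called at both days. This gene encodes a cadherin first known from pituitary and brain. Its log2 ratio was -1.58 and -1.01 at day 3 and -2.55 and -1.48 at day 10, which gave means of -1.29 ± 0.40 and -2.02 ± 0.75 (SD of 2 technical arrays, as for every value with ±). All 4 arrays lay below -1. Its pair of spots gave -1.49 and -1.66 on the first day 3 array, -0.75 and -1.27 on the second, -2.50 and -2.59 on the first day 10 array and -1.59 and -1.38 on the second. All 8 spot values were thus negative, and 1 of them was inside the 2-fold limit. Cdh22 was in the bright part of the genes, at percentile 88.9. Both days were measured with day 0 RNA, so they are not independent evidence. The difference between the days, day 10 minus day 3, was -0.72 ± 0.85, within the spread of the arrays. Of the called members at day 3, Cdh22 was the one nearest the limit, with its second array at -1.01, and with the brightness trend of the arrays removed it was no longer called there.

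Cdh15, the M-cadherin of muscle precursor cells, had the highest cadherin mean at day 3. It stood at 1.04 and 1.55 (mean 1.30 ± 0.36), with spots between 0.97 and 1.70, all positive. It was dim, at percentile 8.45, was not called with the brightness trend removed, and at day 10 it had a single value, 0.50 on the first array. 

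The cadherins of the epithelial switch were not called. Cdh1 was at -0.03 and -0.68 at day 3 and at 0.26 on the single day 10 array with a value. Cdh2 was at -0.89 and 0.12 at day 3 and at -2.13 and 0.29 at day 10, so its arrays disagreed in sign at each day. The first day 10 value of Cdh2 rests on 1 spot. Cdh3, the P-cadherin of epithelia and placenta, was at -0.55 and -0.33 at day 3 and at -0.08 and 0.29 at day 10. It was bright (percentile 85.8), and its difference between the days was 0.54 ± 0.31, with all 4 array pairs between 0.24 and 0.84. Cdh10, a neural cadherin on 6 spots, had the highest cadherin mean at day 10, 0.59 ± 0.34. It was dim (percentile 5.10), and its value of 0.83 on the second array came from 1 spot at 4.15, the other 3 being at 0.01, -0.83 and -0.02.

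Of the 18 cadherins with values on both day 3 arrays, 13 had a mean below 0, and of 14 at day 10, 10 did. Over all genes 6784 of 13707 means were below 0 at day 3 and 6698 of 13199 at day 10. The cadherin medians were -0.26 and -0.67. On the separate arrays the medians were -0.03 and -0.11 at day 3, and -0.43 and 0.07 at day 10, so the sign at day 10 turned with the array. The first day 10 array held 5 cadherins at or below -1 and none at or above 1, and the second 3 and none.

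**Figure D3:**
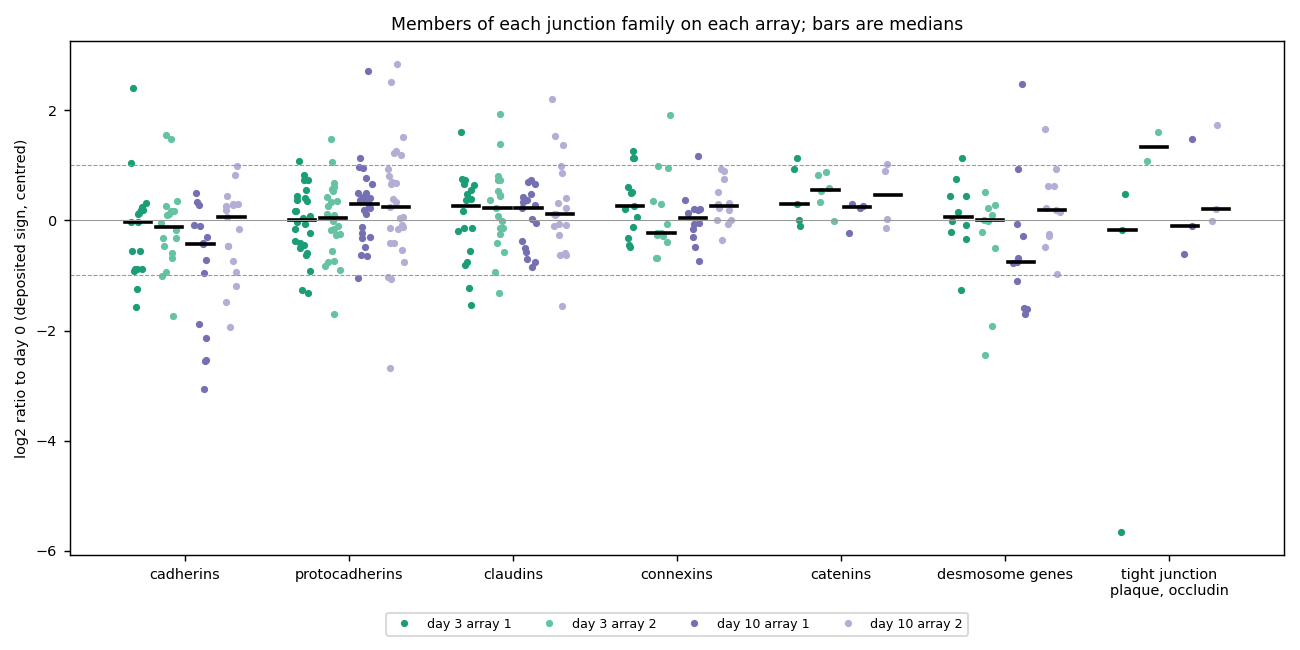
Centred log2 ratio between the channels (vertical), of which one is day 0, for every member, by junction family (horizontal) and array (colour). The sign is as deposited, and the axis label does not fix which channel was divided by which. Black bars are medians and dashed lines the 2-fold limits. Family medians stay within 1 of 0 except for the tight junction plaque and occludin on the second day 3 array, where 2 genes had values, and cadherins and desmosomal genes are lower on the first day 10 array (-0.43 and -0.76) than on the second (0.07 and 0.19).

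The 27 protocadherins held 1 call, Pcdhga12 at day 10. This member of the gamma cluster, whose combinatorial display gives neurons their surface identity, stood at 1.13 and 2.52 (mean 1.82 ± 0.98). Of its 3 spot values there, 1 was 0.90 and the others were 1.36 and 2.52, and the second array rested on a single spot. At day 3 it was at 0.40 and 0.60, with spots of 1.69 and -0.48 on the second array. It was dim, at percentile 4.92, and was not called with a common spread of the arrays or with the brightness trend removed. Members of the clustered families are alike in sequence, probe sequences were not used here, and the spots may therefore report related genes.

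Pcdhb22 lay nearest outside the limit at day 10, at 0.97 and 1.26 (mean 1.11 ± 0.21), after 0.17 and 0.34 at day 3. All 4 differences between the days were positive, from 0.63 to 1.09. At day 3 the family ran from Pcdha7, at -1.33 and -0.83 (mean -1.08 ± 0.35), to Pcdhb10, at 1.08 and 0.27 (mean 0.67 ± 0.57). Neither had both arrays beyond the limit. Pcdh12, an endothelial and trophoblast protocadherin, had the lowest mean at day 10, from 0.67 and -2.68. Pcdh8, the paraxial protocadherin that marks mesoderm, was at -0.50 and 0.68 at day 3 and at 0.38 and 0.06 at day 10, near the floor of brightness (percentile 2.11). The median of the family was 0.08 over 24 genes at day 3 and 0.23 over 25 at day 10, where 17 means were above 0. Over all genes 6501 of 13199 means were above 0 at day 10.

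No claudin was called at either day. Cldn11, a claudin of myelin and of the testis barrier, had the closest agreement of arrays and differed between the days. It was at 0.75 and 0.74 at day 3 and at -0.37 and -0.26 at day 10, on bright spots (percentile 94.5). Its 4 spot values at day 3 ran from 0.66 to 0.83 and those at day 10 from -0.43 to -0.25, so the days did not overlap. The difference was -1.06 ± 0.08, with the array pairs between -1.12 and -1.01, and it was the member nearest inside the limit between the days. With the spot of smallest array difference or with the brightness trend removed it was not called.

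Another 3 members from the brighter 50% of genes, named after their values were seen, had a larger spread than Cldn11. Cldn14, an inner ear and kidney claudin, was at 0.66 and 0.74 at day 3 and at -0.05 and 0.13 at day 10, a difference of -0.66 ± 0.14. Cldn12 was at -0.56 and -0.58 at day 3 and at 0.28 and -0.06 at day 10, a difference of 0.68 ± 0.24, although its spots on the first day 3 array were -1.07 and -0.05. Pcdh15, a cadherin of the tip links of hair cells, was at -0.91 and -0.76 at day 3 and at 0.23 and 0.70 at day 10. The difference of Pcdh15 was 1.30 ± 0.35, with all 4 array pairs positive, from 0.98 to 1.61, and the gene was at percentile 66.8. Its first day 3 array and its second day 10 array each rested on 1 spot, the same one. The other spot of Pcdh15 gave -0.58 on the second day 3 array and -0.24 on the first day 10 array, so it stayed negative.

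The claudins of early epithelia were not called. Cldn6, an early marker of epithelial differentiation in embryonic cells, was at -0.19 and -0.14 at day 3 and at 0.42 and -0.09 at day 10. Cldn4, a sealing claudin, was at 0.64 and 0.09 at day 3 and at 0.73 and 0.86 at day 10, on the positive side on all 4 arrays (percentile 94.9). Cldn3 was at 0.48 and 0.38 at day 3 and at -0.69 and 0.12 at day 10. Cldn7 had the highest claudin mean at day 10 (0.70 and 1.54, mean 1.12 ± 0.60), with 1 value at day 3, 1.39, on the second array.

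Cldn2, which forms a cation pore in leaky epithelia, showed how a single spot could set a gene's value. Its first spot gave 0.22, 0.46, -0.19 and -0.24 on the 4 arrays in order of day, and its second 2.98, -3.11, 1.51 and -2.88. The second spot was thus positive on the first array of each day and negative on the second. At day 3 the mean of Cldn2 was 0.14 ± 2.07. Cldn16, the renal magnesium claudin, had the highest mean at day 3 from 0.37 and 1.94, and Cldn18, a claudin of stomach and lung, the lowest, from -1.53 and -0.93 (mean -1.23 ± 0.42). On the second day 3 array the spots of Cldn18 gave 0.72 and -2.59.

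Gja4 had the highest connexin mean at day 3. Its product joins endothelial cells and also oocytes to their follicle cells. It was at 1.26 and 1.92 at day 3 (mean 1.59 ± 0.46) and at -0.05 and 0.29 at day 10 (mean 0.12 ± 0.24). All 4 spot values at day 3 were beyond 2-fold, from 1.21 to 1.99, and those at day 10 lay between -0.20 and 0.36, so the days did not overlap. The difference between the days was -1.47 ± 0.52, and 1 of 4 array pairs, at -0.97, was inside the limit. Of the endothelial markers, 6 of 6 had values at day 3, with a median of 0.014 and a range from -0.18 to 1.72, and Tie1 was beyond 2-fold at 1.72 ± 0.36. At day 10 the median was 0.0065, and Cldn5 was the one beyond 2-fold at 1.37 ± 0.32. Their part in the value of Gja4 was not tested.

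Gjb1, the connexin of liver and Schwann cells, was the member nearest outside the limit at day 3, at 1.14 and 0.995. Its spots ran from 0.98 to 1.20. At day 10 it was at -0.07 and 0.01, and the difference between the days was -1.10 ± 0.12, with the smallest of the 4 array pairs at 0.985 in size, just short of the limit. Its brightness percentile was 88.3, beside 88.9 for Cdh22. Gja4 and Gjb1 thus had the same course, above 0 at day 3 and near 0 at day 10 in every spot to within 0.36.

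The most widespread connexin, Gja1, which is abundant in embryonic stem cells and later in heart, was at 0.27 and -0.69 at day 3 and at 0.19 on the single day 10 array with a value. Gjc1, the early cardiac connexin, was at 0.50 and 0.30 at day 3 and at -0.16 and 0.76 at day 10. Gja5, an atrial and arterial connexin, was at -0.33 and -0.23 and then at -0.30 and 0.32. Gjb2, of epithelia and the inner ear, was at 0.51 and -0.26 and then at 0.20 and 0.91. Gja3, a lens connexin, had the highest mean at day 10 (1.18 and 0.52, mean 0.85 ± 0.47), at percentile 2.16 of brightness, and Gjd2, of neurons, the lowest at each day (-0.56 ± 0.17 and -0.40 ± 0.48). The connexin median was 0.13 over 13 genes at day 3 and 0.12 over 11 at day 10.

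**Figure D4:**
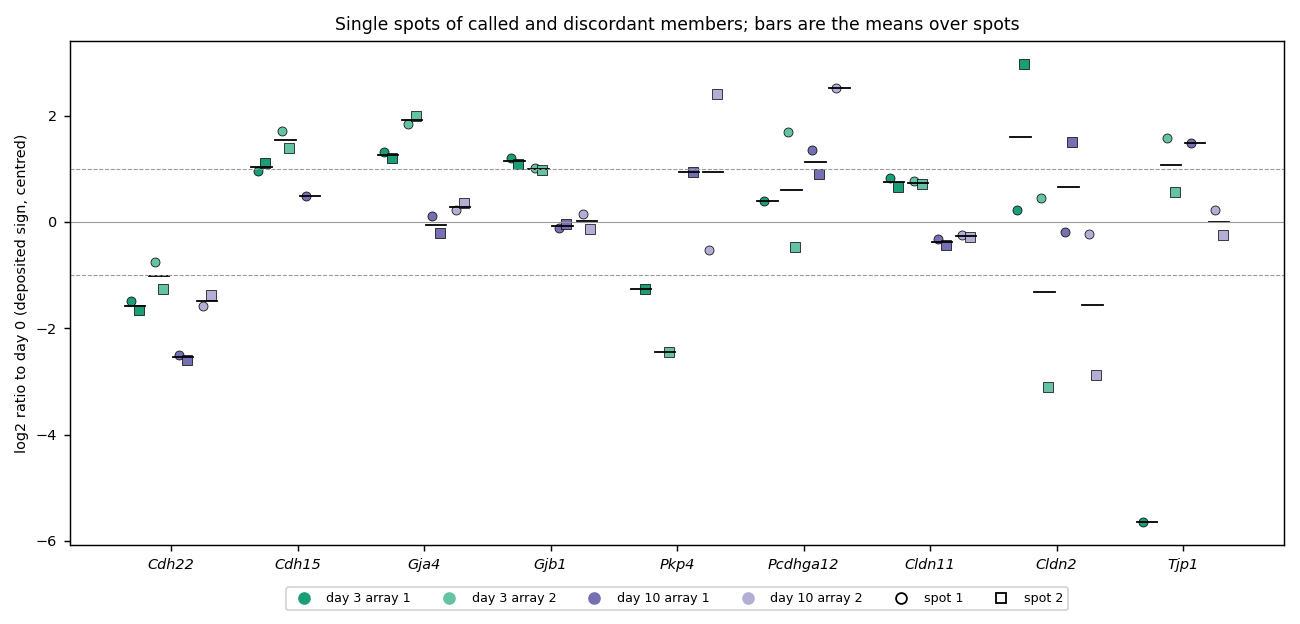
Centred log2 ratio of single spots (vertical) for called members and for members with discordant arrays (horizontal), by array (colour) and spot (circle or square). Bars are the means over spots. The spots of Cdh22, Gja4, Gjb1 and Cldn11 keep together on each array, while the second spot of Cldn2 runs from -3.11 to 2.98 and Tjp1 holds a single value of -5.65.

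Among the catenins, beta-catenin (Ctnnb1), which serves both the adhesion complex and Wnt signalling, was at 0.29 and 0.33 at day 3 and had no value at day 10. Its spots at day 3 ran from -0.19 to 0.85 and were dim, at percentile 2.50. Alpha-catenin (Ctnna1), the actin link, was at -0.10 and 0.58 and then at 0.23 and -0.14. The p120 catenin gene Ctnnd1, which holds cadherins at the membrane, was close to 0 throughout, at 0.00 and -0.02 and then at -0.23 and 0.03. Of its 4 spots, 3 had a value on the first day 10 array, and the gene was at percentile 76.9 of brightness. Ctnnd2, its neural relative, had the highest mean at day 3 (1.14 and 0.82, mean 0.98 ± 0.22) and 1.03 on the day 10 array with a value, at percentile 4.64. Ctnna3, the alpha-catenin of heart, was at 0.31 and 0.89 at day 10. No catenin was called, and 3 of 6 had values on both day 10 arrays.

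Of the desmosomal genes, Pkp4 was called at day 3 and between the days. Pkp4 encodes a relative of p120 catenin and the plakophilins found at desmosomes and adherens junctions. It was at -1.26 and -2.45 at day 3 (mean -1.86 ± 0.84) and at 0.94 and 0.93 at day 10 (mean 0.94 ± 0.01). The difference between the days was 2.79 ± 0.84, and the array pairs ran from 2.19 to 3.39 without overlap. That course rests on few dim spots. At day 3 a single spot carried a value on each array, with ratios that reduce to 9 over 22 and 77 over 430. On the second day 10 array the pair of spots gave -0.53 and 2.40, so the small SD at day 10 comes from an average of unlike spots.

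Desmoplakin (Dsp), the link to keratin, was at 1.14 and 0.28 at day 3 and at 2.47 and -0.97 at day 10. Plakoglobin (Jup), which desmosomes and adherens junctions have in common, was at 0.44 and 0.23 at day 3 and at -1.60 and 0.16 at day 10, where the spots of the second array gave 2.05 and -1.73. Dsg3, a desmoglein of stratified epithelia, had the lowest mean at day 10 (-1.71 and -0.28, mean -0.995 ± 1.01). Pkp1 had no value at day 3 and -1.60 and 1.67 at day 10. Over the 11 genes the median was 0.11 at day 3 (10 measured) and -0.07 at day 10 (11 measured), and the medians of the separate day 10 arrays, -0.76 and 0.19, had opposite signs.

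Zonula occludens protein gene Tjp1 was at -5.65 and 1.07 at day 3 and at 1.49 and 0.00 at day 10. The value of -5.65 came from 1 spot, the other having none on that array, and was the lowest of any member. Occludin (Ocln), the tetraspan partner of the claudins, was at -0.17 and 1.61 at day 3 and at -0.10 and 0.21 at day 10, at percentile 3.96. Tjp3 had 1 value at day 3 and -0.61 and 1.74 at day 10. At neither day did both arrays of any of the 3 lie beyond 2-fold on one side.

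The brightness measure is uncertain at its upper end, and whether the brightest members have firmer values was not tested. The 15 members in the brightest 25% of genes were looked at apart, a grouping chosen after the data were examined. Of these, Cdh22 and Gja4 were called at day 3 (2 of 14 measured, 14.3%, against 4.09% of all genes in the brightest 25%), Cdh22 at day 10 (1 of 15, 6.67%, against 3.95%) and Cldn11 between the days (1 of 14, 7.14%, against 4.1%). Besides those above, Gjd3 was at 0.06 and 0.94 at day 3 and at 0.37 and 0.01 at day 10, and Pcdh17 at 0.36 and -0.01 and then at 0.31 and 0.39. Cdh11, a cadherin of mesenchyme, was at 0.19 and -0.05 at day 3 and at -0.96 and -0.46 at day 10, a difference of -0.78 ± 0.39 with all 4 pairs negative, from -1.15 to -0.41. Pcdh9, a neural protocadherin, ran from -0.40 to 0.20 over the arrays, Pcdha6 from -0.31 to -0.02 on the 3 with a value, and Cldn23 from -0.50 to 0.41.

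**Figure D5:**
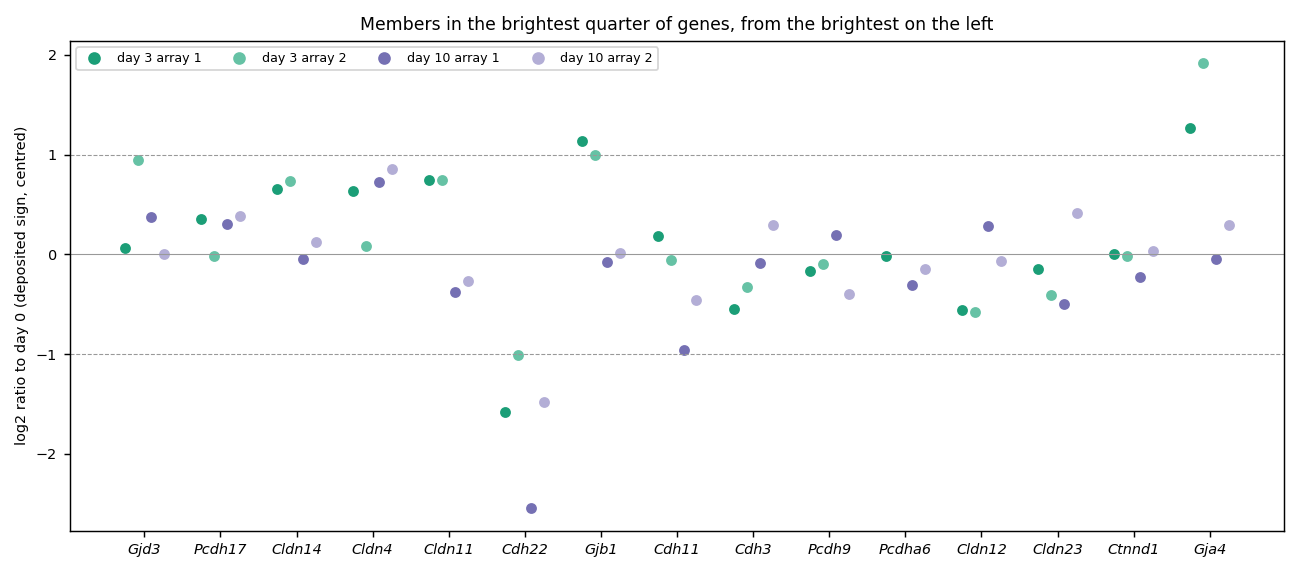
Centred log2 ratio between the channels (vertical) of the 15 members in the brightest 25% of genes, ordered by the whole-number measure of brightness from the highest on the left. The sign is as deposited, and the axis label does not fix which channel was divided by which. Points are arrays and dashed lines the 2-fold limits. Cdh22 lies below 0 on all 4 arrays, Gja4, Gjb1, Cldn11 and Cldn14 lie above 0 at day 3, and most other values are within 1 of 0.

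Day 10 was set against day 3 through the day 0 RNA, which was assumed to be the same on every array. The direction of the ratio and the assignment of the dyes were also assumed to be the same at each day. The labels allow no check of either assumption, and every difference between the days given here rests on both. A dye effect on single genes, which could recur on every array, was not tested. Of 77 members with values on all 4 arrays, 2 had every difference between a day 10 and a day 3 array beyond 2-fold with one sign (2.60%), against 3.54% of 12654 genes. They were Pkp4 on the positive side (1.82% of all genes) and Cldn11 on the negative side (1.72%). The median difference was -0.052 for the members and -0.013 for all genes. By family it was -0.54 over 14 cadherins, 0.29 over 22 protocadherins, 0.22 over 16 claudins, -0.10 over 11 connexins and -0.047 over 10 desmosomal genes, with median SDs of 0.91, 0.89, 0.58, 0.52 and 0.94.

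Other junction genes and regulators of the epithelial state were followed from a list of 72 symbols, of which 53 were on the arrays. At day 3, 1 of 50 measured was called (against 2.8% of all genes), Vcl (vinculin, an actin link of adherens junctions), at 1.80 and 1.05. At day 10, 2 of 46 were called (against 3.54%): Krt19, an epithelial keratin, at 1.11 and 1.74, and Jam3, a junctional adhesion molecule, at -1.92 and -1.27. Between the days, Krt19 (1.37 ± 0.45) and Ppl (periplakin, of the desmosomal plaque, 2.08 ± 1.22) were beyond the limit out of 43 (against 3.54%). Vim (vimentin, a filament protein of mesenchyme) was beyond 2-fold on opposite sides at day 10, at -1.29 and 1.72. The list medians were 0.060 at day 3, 0.26 at day 10 and 0.22 between the days. Snai1, a repressor of Cdh1 in the mesoderm, was at 1.31 and 0.77 at day 3, and Snai2 at -0.78 and -1.06, neither called.

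Ratios do not show whether a cell type was present, so the labels were set beside marker genes only for the direction of their ratios. For undifferentiated stem cells, all 7 of 8 with values on both day 3 arrays had a mean below 0, from -2.71 to -0.38, and so had the 6 measured at day 10, from -1.39 to -0.22. At day 10, however, the arrays of 3 of the 6 differed in sign: Nanog was at 0.15 and -0.59, Esrrb at 0.29 and -0.80, and Dppa5a at 0.41 and -2.85. Dppa5a at day 3 was the one called. In the lists for other cell types besides endothelium, the called genes at day 3 were all positive. Of all genes, 1.77% were called with a positive ratio and 1.03% with a negative one. These lists were drawn up after earlier results of these data had been seen, so their calls are descriptions only. The called genes were Mesp1 (mean 1.97), 1 of 4 measured for the primitive streak, and Dnmt3b (1.32), 1 of 2 for the primed epiblast. Apob (1.29) was 1 of 6 for visceral endoderm, and Neurog2 (1.22) 1 of 4 for neural cells. The medians of these lists were 0.56, 0.76, 0.20 and 0.29, and their lowest means -0.12, 0.19, -0.21 and -0.22. Mesp1 and Apob were dim, at percentiles 11.4 and 5.27. At day 10 the called one was Alas2 (1.23, percentile 8.68), 1 of 3 measured for red cells, against 3.54% of all genes. No cardiac muscle or fibroblast marker was called at either day.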

How the data were processed

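Total RNA was measured on 4 spotted arrays with 2 channels each, 2 technical arrays for each day. The authors deposited 1 number for each spot of an array, read here as a log2 ratio between channels. The base was inferred: in base 2, 5.86% of 5000 values of the first array were whole-number fractions with denominators no larger than 100 (within 5e-05), and in base e or 10, 0.68%. The labels do not state software, background treatment or dyes. Between 10.3% and 18.8% of spots per array had no value, and the number of arrays limits the precision.

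Spots were named through the platform's annotation of 32544 spots with 1 symbol, after leaving out 480 control spots; 588 spots with several symbols and 12996 without a row were not used. Arrays were centred on their median and spots averaged per gene. Members were measured on both day 3 arrays for 90 genes and on both day 10 arrays for 84.

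The text names every called member, the highest and lowest member of each family at each day, those nearest the limit, and 22 members followed throughout, some of which are not reported here. Members and lists were chosen with earlier results of these data known. No significance test was run. Whole numbers up to 10000 were taken as recovered, and larger ones count as bright, although they can also come from ratios that are not of whole numbers. The steps were tested on simulated data. Calculations used Python 3.11.15, numpy 2.4.6, pandas 2.3.3 and matplotlib 3.10.9.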

Additional observations from a re-analysis of the deposited data

Results flagged for a closer look

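Of the 77 members with values on 4 arrays, 8 had both day 3 arrays on one side of 0 and both day 10 arrays on the other (10.4%), and of all 12654 genes 1766 did (14.0%). The differences, day 10 minus day 3, were -1.06 for Cldn11 (means 0.75 and -0.32), -2.47 for Cdh18 (1.29 and -1.18) and -1.12 for Pkp3 (0.33 and -0.79). On the other side they were 2.79 for Pkp4 (means -1.86 and 0.94), 1.30 for Pcdh15 (-0.84 and 0.46), 1.11 for Gja3 (-0.26 and 0.85), 0.71 for Cldn22 (-0.41 and 0.30) and 0.54 for Cldn8 (-0.14 and 0.40). Cldn11 and Pkp4 were called between the days, and the others were not. For Pkp3, Cldn8, Gja3, Cldn22 and Pcdh15 the spots of the gene disagreed in sign on single arrays. The first day 3 array gave -1.06 and 1.36 for Pkp3 and -0.75 and 0.47 for Cldn8. The second day 3 array gave 0.52 and -1.31 for Gja3 and -0.63 and 0.63 for Cldn22. For Pcdh15 the first day 10 array gave -0.24 and 0.69. Pkp3 and Gja3 were dim, at percentiles 2.22 and 2.16. Cdh18 rests on 1 spot per array, and the first of its day 3 arrays was at 2.40 and the second at 0.18. Both day 3 values came from one spot and both day 10 values from the other, so no spot of Cdh18 was measured at both days. The difference was not tested.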

How the results depend on the processing

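Over the 8 called values, 103 pairs of a value and an alternative setting were run, and 18 of these ended a call. No called value changed its side of 0. Most settings could not change it, since a call already needs every array, or array pair, beyond the limit on one side. The counts moved with the limit. At day 3, 4 members were called, 13 at 1.5-fold, 0 at 4-fold, 12 by the mean alone, 7 with the most concordant spot, 2 in the brighter 50% of genes (Cdh22 and Gja4) and 2 with every spot beyond the limit (Gja4 and Pkp4), a choice added after the data were examined. At day 10, 2 were called, 6 at 1.5-fold, 0 at 4-fold, 10 by the mean alone, 9 with the most concordant spot, and 1, Cdh22, with a common spread, without the brightness trend, in the brighter 50% and with every spot. Between the days, 2 were called, 9 at 1.5-fold, 1 at 4-fold, 18 by the mean alone, 5 with a common spread, 6 with the most concordant spot, 1 in the brighter 50% and 0 with every spot. The shares of all genes called moved too. At day 3 they were 11.7% at 1.5-fold, 0.175% at 4-fold, 7.97% by the mean alone and 4.57% with the most concordant spot. In the same order they were 14.0%, 0.220%, 10.6% and 5.90% at day 10, and 10.3%, 0.356%, 16.2% and 6.57% between the days. The day 10 members stood at 6, 0 and 10 of 84 and 9 of 82 in these settings. With 1 array left out fewer values must pass, and the counts were 15 to 17 at day 3, 15 to 19 at day 10 and 7 to 17 between the days. Of all genes, 12.8% to 14.4%, 16.2% to 20.4% and 10.0% to 15.4% were then called.

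The day 3 median of 0.049 was -0.0543 without the brightness trend and -0.00744 in the brighter 50%, and the cause was not tested. The median between the days, -0.052, ran from -0.0692 to 0.0964 with an array left out, the highest being without day 10 replicate 1. Where both day 3 arrays had disagreed, leaving out either array put Cldn2 at -1.33 or 1.60 and Tjp1 at -5.65 or 1.07. The difference for Dsp was -1.69 or 1.76 with either day 10 array left out. No paired analysis was possible because the arrays of a day are technical replicates of 1 RNA pair and the labels give no replicate numbers. Dim spots limit most members, 63 of 97 being in the dimmer 50% of genes.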
